A study of Equus asinus with 12 samples.

Results

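Gluteal muscle of the Wutou strain of Dezhou donkey was compared with gluteal muscle of the Sanfen strain. The comparison holds 6 of the 12 RNA-seq libraries of the series, 3 per strain, and every locus with an FPKM (fragments per kilobase of transcript, scaled to library depth) of at least 1 in at least 3 of those 6 libraries. This rule kept 10675 of the 27084 deposited loci. The Sanfen gluteal group and the Wutou gluteal group were both labelled as 24 months old, the labels name no treatment, and the other 6 libraries are longissimus dorsi of the same strains and age. The 12 samples came from 6 donkeys per the design text. Which animal gave which library is not labelled, so p-values here measure the spread between libraries of a group. The samples were pieces of whole muscle, which hold fibres, vessels, nerve, connective tissue and fat. In such bulk samples fewer cells of a type and less RNA per cell cannot be told apart.

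Sanfen and Wutou donkeys are bred as coat-colour strains: Sanfen animals are black with pale areas on the muzzle, around the eyes and on the belly, and Wutou animals are black throughout. The gluteal muscles extend the hip and drive the hind limb forward. Muscle fibres fall along a range from slow oxidative fibres, which rely on mitochondria and resist fatigue, to fast glycolytic fibres, which shorten and relax quickly. Each end of the range uses its own isoforms of myosin, troponin and the calcium pump of the sarcoplasmic reticulum, so the ratio of slow to fast isoform RNA describes where a sample of muscle lies.

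All 6 libraries carried the contractile RNA of skeletal muscle at high level. TNNC2, the calcium-binding troponin subunit of fast fibres, ran from 5163 to 10462 FPKM, and the kept members of the slow fibre list summed to 3530 to 10284 FPKM. The 6 libraries differed in how many loci they reached. Sanfen gluteal libraries had 11412, 11464 and 10358 loci at an FPKM of 1 or more and Wutou gluteal libraries had 9993, 10071 and 9865, so the strains did not overlap, and the part of this in the results was not tested. Summed FPKM was 248500 to 269945 in Sanfen and 214564 to 277236 in Wutou, with 43.8% to 55.0% of it in the 10 loci of highest FPKM. Correlations of log2(FPKM + 1) across loci were 0.907 to 0.925 within a strain and 0.910 to 0.931 between strains, so the 2 ranges lay over each other. The first Sanfen library stood apart in several gene groups below, so counts and lists are also given without it. Read numbers are not in the table, so no counting interval can be given.

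ZNF24, a zinc finger transcription factor, was the locus that passed the test, and it was lower in Wutou. Its FPKM was 3.82, 3.49 and 3.51 in the Sanfen gluteal libraries and 1.07, 0.575 and 0.734 in the Wutou gluteal libraries, a 4.54-fold difference of means. Every Sanfen library lay above every Wutou library, with means of 3.61 ± 0.183 (SD) in Sanfen and 0.794 ± 0.255 in Wutou. On the log2(FPKM + 1) scale the difference was -1.37 (SE 0.164), with an adjusted p of 0.0353 (limma, Benjamini-Hochberg over all 10675 loci). It was 1 of 10675 loci called, which is 0.00937%, and 0 loci were called higher in Wutou. The call depended on the libraries used: the adjusted p was 0.0755 without the first Sanfen gluteal library, with a log2 difference of -1.34, and the call held in 2 of the 12 fits that left out a library. Over those fits the log2 difference stayed between -1.48 and -1.28, while the adjusted p ran from 0.00946 to 0.233.

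At an unadjusted p under 0.05, 505 loci differed (4.73%), of which 421 were lower in Wutou (3.94%) and 84 higher (0.787%). The share of loci at this level is close to the threshold itself. Without the first Sanfen library there were 430 (4.03%), 304 lower (2.85%) and 126 higher (1.18%), and 267 loci were under 0.05 with and without it, 212 of them lower in Wutou. All 505 kept the sign of their difference without it. The balance of directions moved with the scaling of the libraries: median-of-ratios rescaling gave 170 higher and 249 lower, and quantile normalization gave 227 higher and 240 lower. The same lean runs through all loci, since 65.3% had a log2 difference below 0 and 34.7% above 0, with a median of -0.08 over all 10675. Without the first Sanfen library 58.7% were below 0 and 41.3% above, with a median of -0.05. Groups that did not overlap were found at 920 loci with Wutou below (8.62%) and at 231 with Wutou above (2.16%); without the first Sanfen library the shares were 12.7% and 6.86%. Counts by direction below are to be read against these shares.

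Genes lower in Wutou with groups that did not overlap were led by COMMD1, a protein of copper export that also restrains NF-kappaB. COMMD1 stood at 10.05, 9.99 and 7.35 FPKM in Sanfen and at 3.81, 4.20 and 3.27 in Wutou. The log2 difference was -1.08 (SE 0.173) and did not pass (limma adjusted p 0.244). Of 2479 reference genes with a symbol and a mean of at least 5 FPKM in the higher group, 236 lay wholly below and 54 wholly above, and the genes described here are the 10 with the smallest p in each direction, so their separation is what chose them. The other 19 had limma adjusted p-values of 0.924 or above.

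CAT, the catalase that breaks down hydrogen peroxide in peroxisomes, was 26.5, 21.1 and 21.4 FPKM in Sanfen against 11.9, 10.5 and 13.3 in Wutou. The Wutou values are close to each other and all lie well under the lowest Sanfen value. CAT was also lower in the other muscle, with means of 20.6 in Sanfen longissimus and 9.29 in Wutou longissimus. MGST3, a microsomal glutathione transferase and peroxidase, was 47.1, 66.1 and 42.5 FPKM in Sanfen against 28.9, 20.3 and 30.8 in Wutou. SEPP1, which encodes the selenium carrier selenoprotein P, averaged 67.6 ± 9.64 (SD) in Sanfen and 37.6 ± 12.5 in Wutou.

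PHB, the inner-membrane scaffold prohibitin, was 42.6, 31.1 and 28.8 FPKM in Sanfen against 25.3, 11.4 and 16.6 in Wutou. NDUFA7, an accessory subunit of respiratory complex I, was 41.9, 44.8 and 33.9 FPKM in Sanfen against 26.5, 24.5 and 21.8 in Wutou. In longissimus the NDUFA7 difference had the other sign, +0.55 on the log2 scale against -0.70 in gluteal. SRPRB, the membrane subunit of the signal recognition particle receptor, averaged 7.77 ± 1.73 FPKM in Sanfen and 4.05 ± 0.711 in Wutou, and TMCC1, an endoplasmic reticulum membrane protein, 6.45 ± 1.28 and 3.66 ± 0.771. PNRC1, a nuclear receptor coactivator, was at 23.0, 18.1 and 19.1 FPKM in Sanfen and at 5.88, 1.32 and 5.74 in Wutou, the widest gap of these 10 in log2 terms at -2.14 (SE 0.649).

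P2RY2, a purinergic receptor for extracellular ATP and UTP, led the genes higher in Wutou. It was at 0.803, 1.62 and 1.01 FPKM in Sanfen and at 7.76, 7.74 and 6.98 in Wutou, a 6.55-fold difference of means. Neither strain had a library between 1.62 and 6.98. The log2 difference was 2.0 (SE 0.501) with a limma adjusted p of 0.924 in the fit of all 12 libraries. In a fit of the 6 gluteal libraries alone the adjusted p was 0.0315, and it was 0.108 in that fit without the first Sanfen library. P2RY2 varied from 0.505 to 4.60 FPKM among the Sanfen longissimus libraries and from 0.78 to 6.12 among the Wutou longissimus ones, a spread that enters the fit of all 12 and not the fit of 6.

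RNF146, a ligase that acts on PARylated proteins, was 5.42, 4.97 and 4.33 FPKM in Sanfen against 6.47, 10.4 and 13 in Wutou. CUL3, the scaffold of ligases that use BTB adaptors, averaged 3.76 ± 0.664 and 6.01 ± 1.14 FPKM, and RNF103, a ligase of the endoplasmic reticulum, 1.73 ± 1.40 and 5.56 ± 2.54. In longissimus RNF103 had the other order, with means of 5.55 FPKM in Sanfen and 2.84 in Wutou. PODXL, a sialomucin of endothelium and podocytes, was 2.80, 2.45 and 2.0 FPKM in Sanfen against 5.79, 3.94 and 5.85 in Wutou. DCAF5, SELENOH, RASSF8, DNAJC21 and MLF1 complete the 10, with log2 differences of 0.50 to 0.74 and p-values near or above 0.05.

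**Figure D1:**
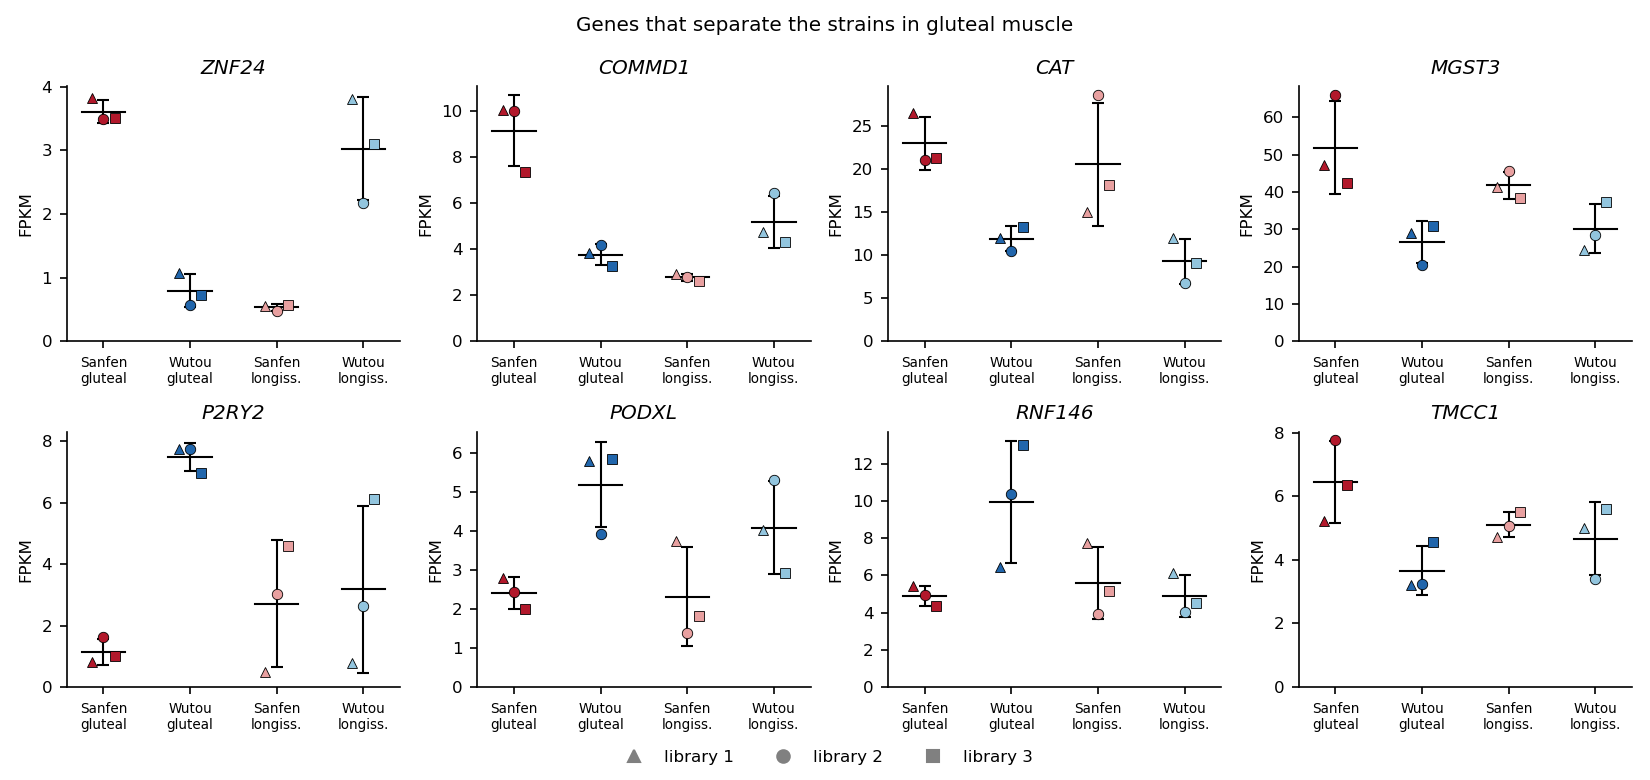
FPKM (y axes, from 0) of 8 genes in the 4 groups on the x axes, with 1 point per library (triangle, circle and square for libraries 1, 2 and 3), a line at the group mean and bars of 1 SD. In gluteal muscle the strains do not overlap for any of the 8; ZNF24 and COMMD1 are ordered the other way in longissimus, and CAT and MGST3 the same way.

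The slow fibre list was lower in Wutou at 12 of its 14 kept members, with a median log2 difference of -0.83 against -0.08 for all loci. Wutou lay wholly below Sanfen at 9 of the 14, against 8.62% of all loci, and 4 were under an unadjusted p of 0.05. None passed the adjusted test. Without the first Sanfen library the same list had 12 members lower, a median of -0.48, and 2 members lower and 1 higher at an unadjusted p under 0.05. Across fits that left out a gluteal library the median ran from -1.02 to -0.48, and under the rescalings it was -0.72 and -0.70.

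ATP2A2, the calcium pump SERCA2 of slow and cardiac muscle, was 405, 279 and 276 FPKM in Sanfen against 137, 132 and 172 in Wutou. The strains were 2.18-fold apart in mean, and the lowest Sanfen library was above the highest Wutou library by a clear margin. On the log2 scale the difference was -1.10 (SE 0.330; limma p 0.00617 before adjustment, 0.969 after), and -0.92 without the first Sanfen library. TPM3, the slow tropomyosin, was 286, 94.9 and 82.7 FPKM in Sanfen against 73.1, 45.1 and 47.9 in Wutou. The first Sanfen library stood far above the other 5, and the log2 difference was -1.26 with it and -0.70 without it.

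The slow troponins had the same shape. TNNC1, the calcium-binding subunit, was 1816, 906 and 809 FPKM in Sanfen against 546, 523 and 639 in Wutou. TNNT1, the tropomyosin-binding subunit, was 1420, 580 and 773 FPKM in Sanfen against 407, 479 and 410 in Wutou. TNNI1, the inhibitory subunit, was 56.2, 38.2 and 30.7 against 19.3, 29.8 and 20.9. In each of the 3 subunits the first Sanfen library was highest of all 6 and all Sanfen libraries were above all Wutou libraries.

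Slow myosin parts followed. The ventricular and slow regulatory light chain MYL2 was 2138, 651 and 862 FPKM in Sanfen against 617, 406 and 602 in Wutou, and the slow essential light chain MYL3 was 1164, 959 and 689 against 365, 563 and 625. The list's locus named MYH6 was 2233, 1258 and 1330 FPKM in the Sanfen libraries and 1171, 817 and 860 in the Wutou libraries. A second, assembled locus overlaps MYH6 and was named here after its values were seen. It was 2744, 1351 and 1591 FPKM in Sanfen against 1332, 892 and 869 in Wutou. MYH6 is a near-identical neighbour of MYH7, the slow myosin heavy chain, and how reads were split between them is not known. CASQ2, the slow calsequestrin, was low throughout, at 8.0, 1.89 and 1.91 against 1.73, 1.01 and 1.28. Members that did not separate the strains were MYBPC1, MYH7B and CSRP3, and 2 members, MYOZ2 and ANKRD2, had positive differences of 0.37 and 0.57. They were 1.03 and 1.55 without the first Sanfen library, and Wutou then lay wholly above Sanfen at MYOZ2 (limma p 0.02 before adjustment, 0.999 after). ANKRD2, a stretch-responsive protein of slow fibres, ran from 2.81 to 35.6 FPKM in Sanfen and from 3.99 to 49.5 in Wutou.

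The fast fibre list ran the other way, at 7 of 8 kept members, with a median of 0.34. No member was under an unadjusted p of 0.05, and none had groups that did not overlap. Without the first Sanfen library the median was 0.14 with 6 of 8 members higher in Wutou. ACTN3, the fast-fibre alpha-actinin of the Z-disc, was 84.1, 195 and 194 FPKM in Sanfen against 183, 316 and 291 in Wutou. TNNI2, the fast inhibitory troponin, was 1217, 2085 and 1973 against 1954, 2738 and 2988. ATP2A1, the fast calcium pump SERCA1, was 522, 1098 and 1100 against 1199, 1040 and 1261, which are alike but for the first Sanfen library. MYLPF, the fast regulatory light chain, was the member below 0, at -0.12.

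MYH1, MYH2, MYH4 and MYH7 were not kept members under their own names. A locus that merges MYH13, MYH8 and MYH2, named here after its values were seen, was 493, 953 and 918 FPKM in Sanfen against 1038, 1211 and 1115 in Wutou, with a log2 difference of 0.57 (SE 0.319) and, without the first Sanfen library, 0.26. Wutou was above Sanfen in every library of this locus. In longissimus, where 58.6% of all loci were lower in Wutou, 41.4% higher and 5.39% under an unadjusted p of 0.05, the slow list had 10 of 14 members lower in Wutou with a median of -0.27, and the fast list had 8 of 8 higher with a median of 0.62. The slow list's direction there rested on the second Sanfen longissimus library: without it 9 of 14 members were higher in Wutou with a median of 0.10, and the fast list had a median of 0.22 with 8 of 8 still higher.

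**Figure D2:**
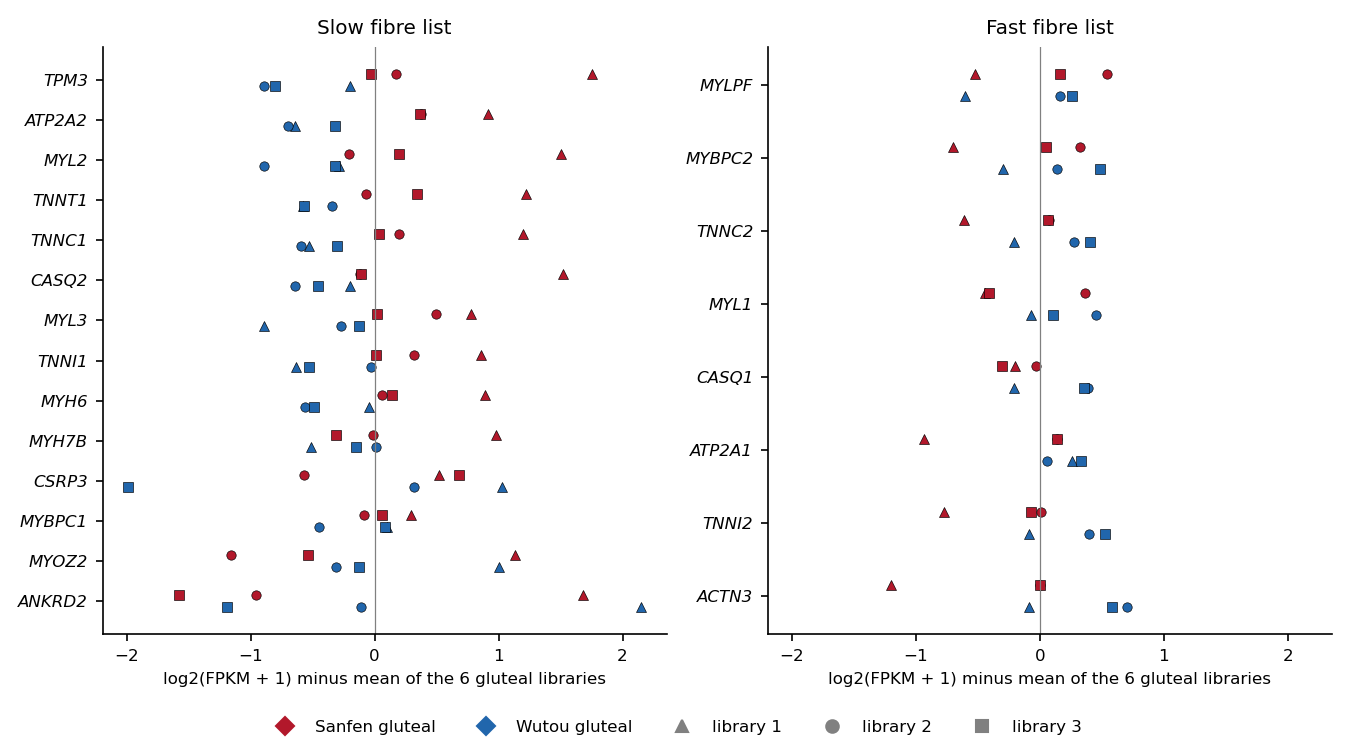
Log2(FPKM + 1) of each member of the slow (left) and fast (right) fibre lists, as the difference from the mean of the 6 gluteal libraries (x axes), by gene (y axes), with Sanfen in red, Wutou in blue and shapes for libraries 1 to 3. The red triangle, the first Sanfen library, lies far to the right for most slow genes and to the left for most fast genes, and the other Sanfen libraries still lie right of the Wutou ones for 9 slow genes.

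Markers of tendon moved with the first Sanfen library too. The list had 5 of 17 members kept, and the summed FPKM of the 16 members in the table was 161.5, 46.4 and 52.3 in Sanfen and 31.8, 60.9 and 35.8 in Wutou. THBS4, a tendon and muscle matrix glycoprotein, was 121, 28.6 and 37.9 FPKM in Sanfen against 16.3, 32.0 and 24.9 in Wutou. Without that library the remaining Sanfen sums lay inside the Wutou range. Of the 5 kept members 4 were lower in Wutou with that library (median -0.34) and 4 without it (median -0.16). At 1 of the 5, FMOD, whose values are given below, Wutou lay wholly below Sanfen with and without it. In longissimus 4 of 5 were lower, with a median of -0.47. The part of tendon tissue in the slow fibre values of that library was not tested.

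Antioxidant enzymes were lower in Wutou at all 17 of 17 kept members, with a median of -0.29, and at 15 of 17 without the first Sanfen library, with a median of -0.20. CAT and NQO1 were under an unadjusted p of 0.05 with and without that library. NQO1, a quinone reductase, was 14.6, 12.3 and 13 FPKM in Sanfen against 7.27, 6.52 and 11.3 in Wutou. SOD1, the cytosolic superoxide dismutase, was 59.0, 63.6 and 55.2 FPKM against 36.1, 50.2 and 50.5. With CAT, NQO1 and TXN2, the mitochondrial thioredoxin, SOD1 makes 4 of 17 members with Wutou wholly below Sanfen, against 8.62% of all loci. Under the rescalings 15 of 17 remained below 0, with medians of -0.19, and in longissimus the list was split, 8 higher and 9 lower, or 5 and 12 without the second Sanfen longissimus library.

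Fuel use genes showed no lean of that size. Glycolysis had 12 of 19 members higher in Wutou (median 0.06) and, without the first Sanfen library, 7 of 19 (median -0.10). Fatty acid uptake and oxidation had 22 of 27 lower (median -0.12), and 17 of 27 without that library (median -0.06). The citrate cycle had 9 higher and 10 lower, and 13 of 19 higher without it. GBE1, the glycogen branching enzyme, was 17.5, 9.21 and 10.5 FPKM in Sanfen against 10.8, 6.32 and 5.81 in Wutou, which overlap. PDK4, which restrains pyruvate entry into mitochondria, varied from 122 to 322 FPKM in Sanfen and from 27.9 to 293 in Wutou, a spread within strains wider than the difference between them.

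**Figure D3:**
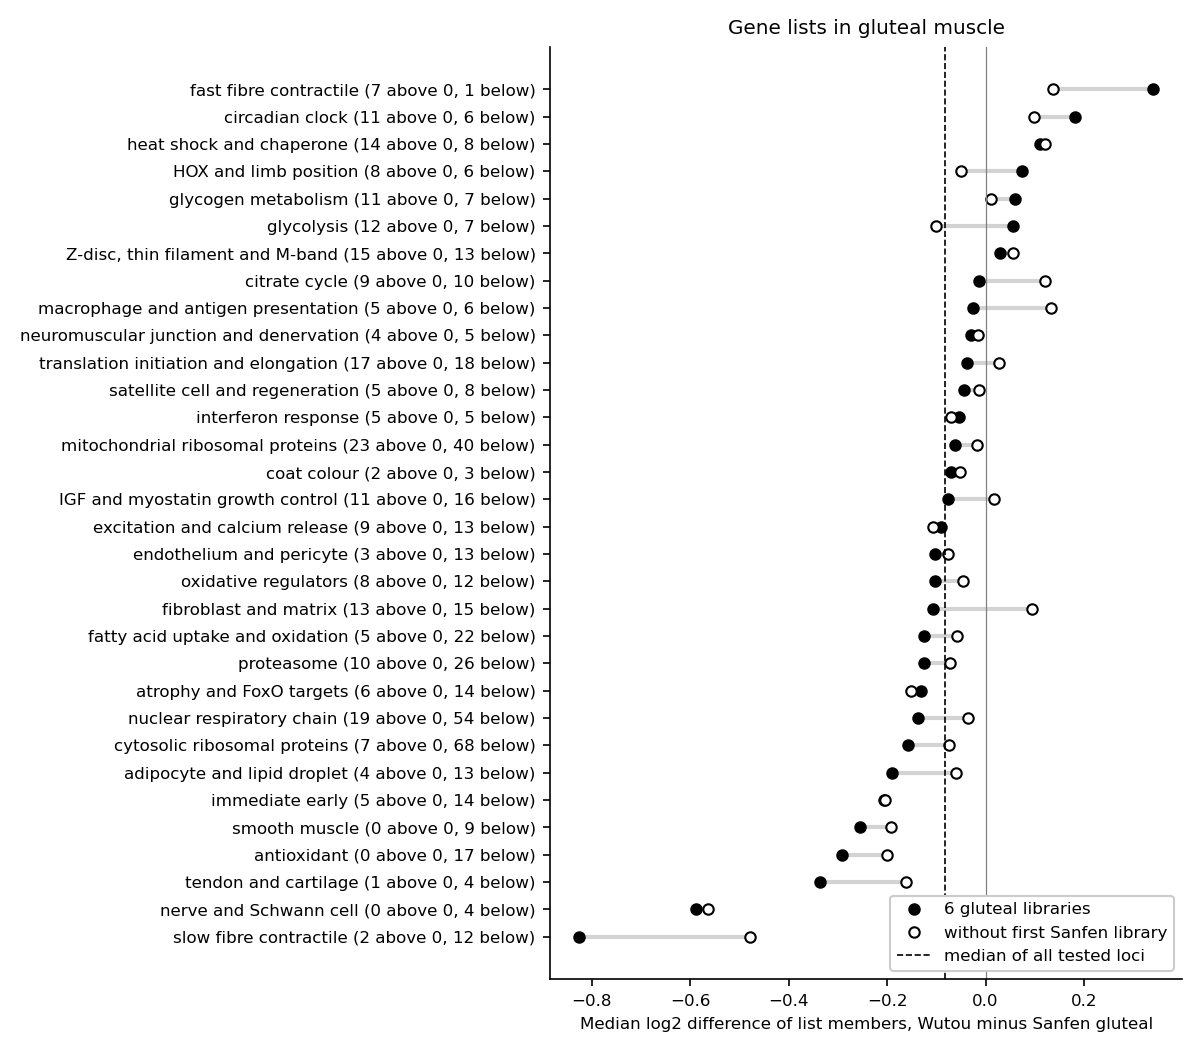
Median log2 difference, Wutou minus Sanfen gluteal (x axis), of the kept members of each gene list (y axis, with the number of members above and below 0), for all 6 gluteal libraries (filled) and without the first Sanfen library (open); the dashed line is the median of all tested loci. With all 6 libraries slow fibre genes have the lowest median, -0.83, and the fast fibre list the highest, 0.34. Without that library the slow list is at -0.48, above the nerve and Schwann cell list at -0.56, and the fast list at 0.14.

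Immediate early genes, induced within minutes by contraction or stress, had 14 of 19 members lower, with a median of -0.21, and 12 of 19 without the first Sanfen library, again with a median of -0.21. KLF10, a TGF-beta induced repressor, was 15, 16.7 and 9.47 FPKM in Sanfen against 5.61, 6.82 and 5.46 in Wutou, without overlap. DUSP1, a phosphatase of MAP kinases, was 65.2, 32.3 and 40.7 against 37.4, 15.2 and 19.3, and BTG2, an antiproliferative factor, 2.32, 3.61 and 6.39 against 0.986, 0.639 and 1.68. These 3 were the members under an unadjusted p of 0.05. KLF10 and BTG2 remained under it without the first Sanfen library and DUSP1 did not (limma p 0.0934 before adjustment). In longissimus the list was lower at 18 of 19 members, with a median of -0.54, and at 16 of 19 without the second Sanfen longissimus library, with a median of -0.29. Among heat shock genes BAG3, a co-chaperone of filamin turnover, was 4.02, 2.12 and 5.77 FPKM in Sanfen against 11, 5.16 and 8.90 in Wutou, and the list had 14 of 22 members higher, with or without the first Sanfen library.

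The core clock gene CLOCK was 1.54, 1.49 and 1.28 FPKM in Sanfen against 2.44, 1.96 and 2.24 in Wutou, without overlap, with a log2 difference of 0.40 (SE 0.147; limma p 0.0197 before adjustment). Its list had 11 of 17 members higher in Wutou, and 11 of 17 without the first Sanfen library. CRY2, a repressor of the same loop, had the other sign, at 5.78, 4.03 and 3.93 against 2.59, 3.08 and 3.56. Sampling hours are not in the labels.

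Genes of coat colour were mostly too low in muscle to be kept, with 5 of the 20 in the table. TYR, the melanin-making enzyme tyrosinase, was listed at 0 in all 6 libraries. EDNRB, the endothelin receptor needed by migrating pigment cell precursors, was 1.19, 1.68 and 1.15 FPKM in Sanfen against 1.13, 0.772 and 0.617 in Wutou, wholly lower by a small margin. MITF, the pigment cell master regulator that muscle also transcribes, was 6.21, 6.66 and 5.81 against 3.25, 5.49 and 6.23.

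Nerve and Schwann cell markers were lower in Wutou at 4 of 4 kept members (of 12 listed), and the summed FPKM of all 12 was 11.1 to 19.3 in Sanfen and 4.80 to 11.6 in Wutou. PMP22, a myelin protein also made by fibroblasts, was 7.87, 5.51 and 6.07 FPKM against 4.54, 4.28 and 1.34. Without the first Sanfen library the 4 nerve markers were still lower, with a median of -0.56 against -0.59. Across the fits that left out a gluteal library the median ran from -0.77 to -0.32, with 3 to 4 markers lower. In longissimus the nerve markers were lower at 4 of 4, with a median of -0.52. Their part in the other results was not tested. CHRNA1, the acetylcholine receptor subunit of the motor endplate, was 4.75, 2.76 and 2.78 FPKM against 1.30, 1.42 and 1.33, without overlap. It belongs to the neuromuscular junction and denervation list, whose 9 kept members were split, 4 higher and 5 lower, with a median of -0.03.

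Smooth muscle markers were lower at 9 of 9 kept members, with a median of -0.26, and none was under an unadjusted p of 0.05; DES, which skeletal fibres make at high level, dominates their sum of 1966 to 2167 FPKM in Sanfen and 1113 to 2194 in Wutou. In longissimus 7 of 9 were higher in Wutou, with a median of 0.05. In gluteal muscle 8 of 9 were lower without the first Sanfen library. Endothelium and pericyte genes were lower at 13 of 16 (median -0.10), fibroblast and matrix genes at 15 of 28, and macrophage genes at 6 of 11; without that library these counts were 9, 13 and 4. No lymphocyte or erythroid marker was kept. The lymphocyte list summed to 2.43 to 4.93 FPKM in Sanfen and 3.07 to 4.34 in Wutou. The erythroid list summed to 3.15 FPKM in the first Sanfen library and to 0.0735 to 0.337 in the other 5.

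Cytosolic ribosomal protein genes were lower in Wutou gluteal muscle at 68 of 75 and higher in Wutou longissimus at 71 of 75. The medians were -0.16 in gluteal and 0.31 in longissimus. RPLP2, an acidic stalk protein, was the member under an unadjusted p of 0.05 in gluteal muscle, at 120, 137 and 85.8 FPKM in Sanfen gluteal and 79.4, 90.5 and 61.3 in Wutou gluteal. RPL18, a large-subunit protein, was 76.8, 74.7 and 67.0 FPKM against 51.1, 58.9 and 61.1, without overlap. Wutou lay wholly below Sanfen at 11 of 75 members, against 8.62% of all loci. The gluteal lean depended on scaling and on single libraries. Without the first Sanfen library 56 of 75 were lower, and 53 to 73 were lower across the fits that left out a gluteal library. Under the rescalings 45 to 48 were lower. The longissimus lean depended on the second Sanfen longissimus library: without it 41 of 75 were higher, with a median of 0.06.

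Nuclear genes of the respiratory chain had the same pair of signs. In gluteal muscle 54 of 73 were lower in Wutou (median -0.14), against 65.3% of all loci (median -0.08). Without the first Sanfen library 41 of 73 were lower (median -0.04), against 58.7% of all loci (median -0.05). In longissimus 62 of 73 were higher (median 0.30), against 41.4% of all loci. Under the rescalings 37 to 41 of 73 were lower in gluteal muscle, with medians of -0.03 and -0.0029. Without the second Sanfen longissimus library 45 of 73 were higher in longissimus, with a median of 0.08. NDUFA7, COX7C and NDUFS8 were the members under an unadjusted p of 0.05 in gluteal muscle. COX7C, a small subunit of cytochrome c oxidase, was 198, 207 and 158 FPKM in Sanfen gluteal and 129, 127 and 120 in Wutou gluteal. In longissimus its order was turned, at 83.5, 52.1 and 78.0 in Sanfen and 195, 157 and 143 in Wutou. Proteasome subunits had 26 of 36 lower in gluteal, 24 of 36 without the first Sanfen library and 21 of 36 under the rescalings. In longissimus 29 of 36 were higher, and 23 of 36 without its second Sanfen library.

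The difference between the muscles, the gluteal strain difference minus the longissimus one (interaction), had a median of -0.52 over the 75 ribosomal genes and -0.41 over the 73 respiratory chain genes, against -0.03 for all loci. It was below 0 at 73 of 75 and 66 of 73, against 54.9% of all loci. Both values rest in part on single libraries. Without the second Sanfen longissimus library the ribosomal median was -0.25 and the respiratory -0.29, and without the first Sanfen gluteal library they were -0.46 and -0.31. Quantile normalization gave -0.28 and -0.24. Other lists also had interaction medians well below 0. The slow fibre list had -0.48 (11 of 14 below 0), which was -0.07 without the first Sanfen gluteal library. It was -0.87 without the second Sanfen longissimus library. Smooth muscle markers had -0.39 (8 of 9 below 0), while the immediate early list had 0.33 (7 of 19 below 0). No ribosomal or respiratory gene passed the test of the interaction; 5 ribosomal and 8 respiratory genes were below 0 at an unadjusted p under 0.05, against 1.78% of all loci, and COX7C had the smallest adjusted p of the named ones, 0.194 in limma.

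**Figure D4:**
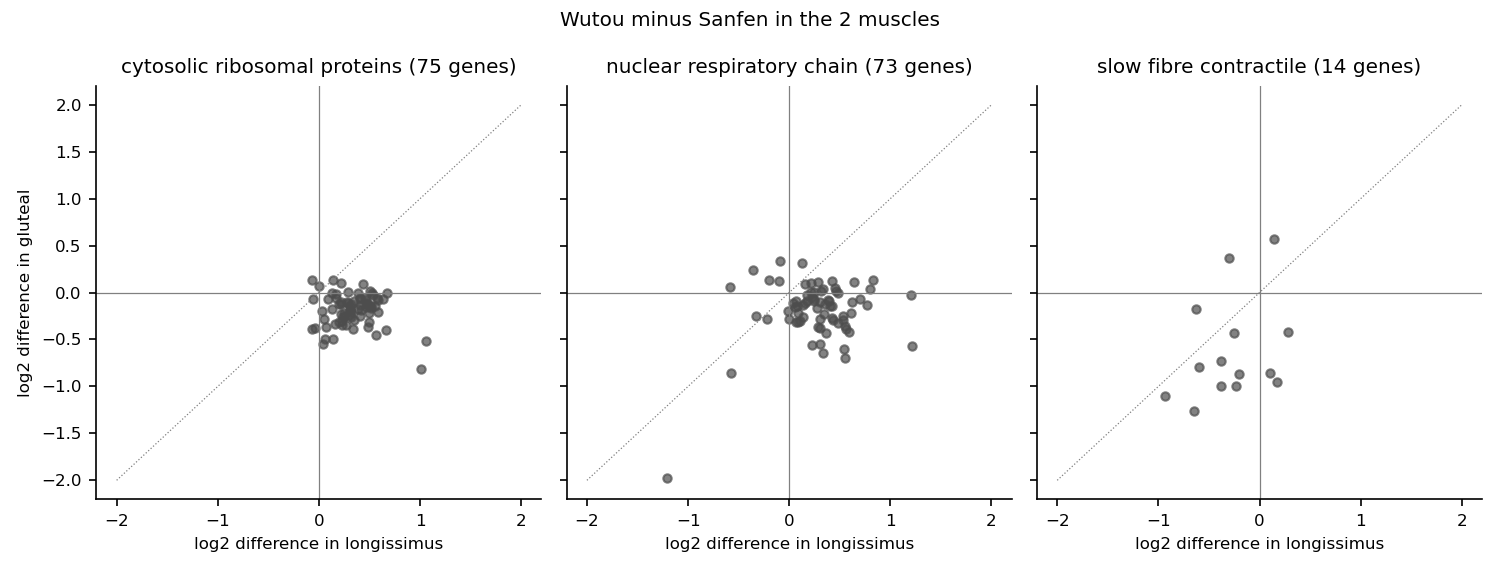
Log2 strain difference (Wutou minus Sanfen) in longissimus (x axes) against gluteal muscle (y axes) for each kept gene of 3 lists; the dotted line marks equal differences. Most ribosomal and respiratory chain genes lie right of 0 and below 0, with medians of 0.31 and -0.16 and of 0.30 and -0.14, while most slow fibre genes lie below 0 in both muscles. Without the second Sanfen longissimus library the longissimus medians are 0.06, 0.08 and, for slow fibre genes, 0.10 in place of -0.27.

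ZNF24 was the locus with a strain difference that itself differed between muscles. In longissimus it was 0.558, 0.468 and 0.572 FPKM in Sanfen against 3.8, 2.18 and 3.10 in Wutou, the reverse of the gluteal order. The interaction was -2.74 with a limma adjusted p of 0.00096, 1 of 10675 loci (0.00937%), and -2.71 without the first Sanfen gluteal library, a fit in which 5 loci passed. COMMD1 had the same crossing, at 2.90, 2.80 and 2.62 FPKM in Sanfen longissimus and 4.72, 6.44 and 4.32 in Wutou longissimus, and an interaction of -1.77 with an adjusted p of 0.0706. With strain and library number as a random block, COMMD1 passed as well, at an adjusted p of 0.0204. KIAA0513 and BTBD9 were next by p with STBD1. KIAA0513, a gene of little known function, averaged 1.66 and 0.918 FPKM in Sanfen and Wutou gluteal and 1.39 and 2.76 in longissimus. BTBD9, a BTB-domain protein, averaged 1.12 and 1.31 in gluteal and 2.52 and 0.662 in longissimus.

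The muscles are not independent samples of the strains, since the 12 libraries came from 6 donkeys. Deviations from the group means of same-numbered gluteal and longissimus libraries had correlations of 0.108 to 0.225 in Sanfen and 0.0668 to 0.186 in Wutou. Same-numbered gluteal libraries of the 2 strains, whose animals differ, had correlations of 0.0862 to 0.133. The part of shared animals in the values of both muscles was not tested.

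Leaving out the first Sanfen gluteal library brought 3 loci past the adjusted threshold (0.0281%), and ZNF24 was not among them. In each of the 3 that library lay at the Wutou level while the other Sanfen libraries lay far from it. STBD1, a glycogen-binding protein that tethers glycogen to membranes, was 0.715, 17.8 and 18.1 FPKM in Sanfen against 0.518, 0.670 and 1.41 in Wutou. Its limma log2 difference was -2.22 with an adjusted p of 0.974 in all libraries and -3.37 with an adjusted p of 0.000204 without the first Sanfen library. In longissimus STBD1 was below 1 FPKM in all Sanfen libraries and at 12.9, 15.9 and 13.8 in Wutou.

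KCNJ11, the pore subunit Kir6.2 of the ATP-sensitive potassium channel of the sarcolemma, was 1.83, 60.3 and 39.8 FPKM in Sanfen gluteal and 2.70, 0 and 1.75 in Wutou gluteal. All 6 longissimus libraries had it between 42.1 and 65.8 FPKM. Its log2 difference went from -3.15 (adjusted p 0.969) to -4.53 (adjusted p 0.00376) in limma without the first Sanfen library. PIGC, an enzyme of GPI anchor synthesis, was 11.2, 0.135 and 0.474 FPKM in Sanfen gluteal and 6.88, 6.78 and 9.02 in Wutou gluteal, and between 5.93 and 10.0 in every longissimus library. Its log2 difference was 1.64 (adjusted p 0.974) with all libraries and 2.72 (adjusted p 0.000435) without that one. These loci stood at a high or a low level with nothing between, and the libraries of a level did not always share a strain.

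**Figure D5:**
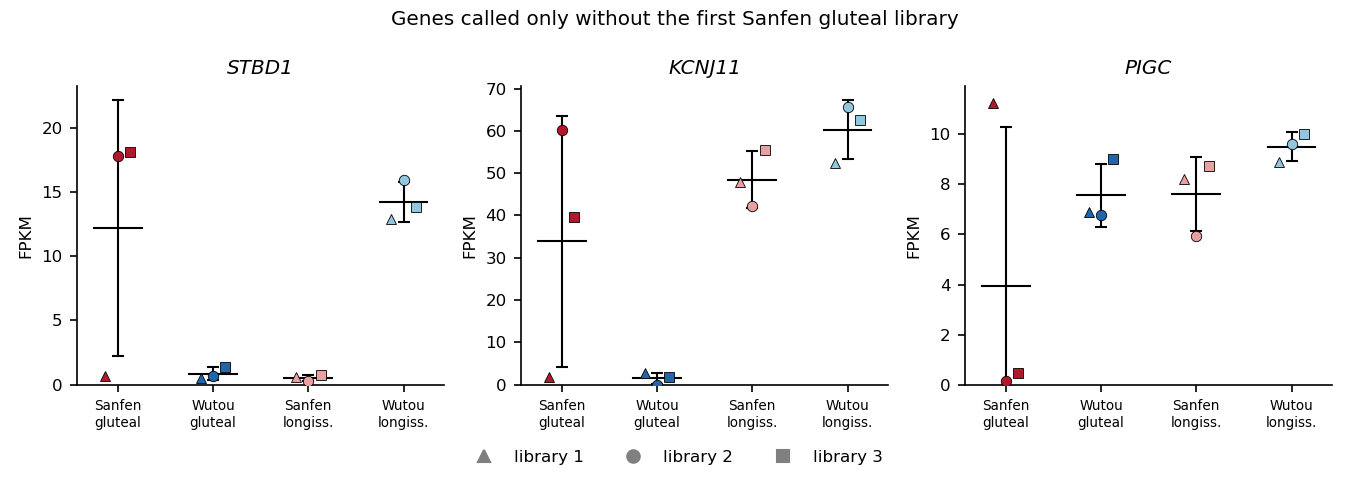
FPKM (y axes, from 0) of STBD1, KCNJ11 and PIGC in the 4 groups on the x axes, with 1 point per library, a line at the mean and bars of 1 SD. The triangle of Sanfen gluteal, its first library, sits with the Wutou gluteal libraries in all 3 panels, apart from the other Sanfen gluteal libraries.

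For other genes the p-value was smaller without that library and did not pass the adjusted test. FUNDC2, a mitochondrial outer-membrane protein, was 2.19, 6.45 and 5.11 FPKM in Sanfen against 2.08, 1.78 and 1.93 in Wutou (limma adjusted p 0.142 without the first library). SMIM26, a small mitochondrial membrane protein, was 3.46, 14.4 and 14.8 against 3.25, 2.94 and 5.16. TFRC, the transferrin receptor that brings iron into cells, was 23.6, 5.92 and 4.06 FPKM in Sanfen against 39.8, 13.4 and 22.0 in Wutou. In FUNDC2, SMIM26 and TFRC alike, the first Sanfen library sat inside or next to the Wutou range.

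By kind of locus, 3.32% of the 8114 loci with 1 reference gene were lower in Wutou at an unadjusted p under 0.05. The share was 6.82% of the 1261 assembled loci named after a gene they overlap and 5.86% of the 956 assembled loci without a name, and 2.91% of the 344 loci that merge several genes. Of the 65 loci that RefSeq lists as long non-coding RNA, 7 were under 0.05 in either direction (10.8%), against 4.73% of all loci, and none passed the adjusted test.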

How the data were processed

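RNA was measured by RNA-seq in 12 libraries of donkey muscle, of which the 6 gluteal ones are compared here; the labels' protocols give Trizol extraction and Illumina kits. The table deposited by the authors gives each locus an FPKM in each library, as its header states. Bowtie2, TopHat2 and cutadapt are listed in the submitters' processing notes, with no version. MSTRG identifiers are StringTie's default. The sources used here name no genome build. Depth in reads is unknown; the commonest step between low values put the other gluteal libraries at 0.938 to 1.04 times the first Sanfen one, from 1.74% to 1.96% of the ratios, a weak estimate. RefSeq names (assembly EquAss-T2T_v2) were matched for 3260 of 6221 LOC names, and 1069 gained a symbol.

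Loci that reached an FPKM of 1 in 3 or more gluteal libraries were tested on the log2(FPKM + 1) scale with limma 3.58.1 under R 4.3.3. That scale understates changes of low genes. The model had the 4 group means over all 12 libraries (8 residual degrees of freedom, trended moderated variances), with Benjamini-Hochberg adjustment at 0.05. On simulated data with 200 changed loci among 10675, 48% were recovered at a log2 change of 1 and 87.5% at 2, with 8 and 9 other loci called. The simulated noise was independent between loci, with no shift of a whole library and no shared animals. Recovery under such shifts, or with fewer changed loci, was not tested. Tables were built with pandas 2.3.3 and numpy 2.4.6 and figures with matplotlib 3.10.9 (Python 3.11.15).

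The comparison, the 35 gene lists (1015 genes, 715 kept) and the tests were chosen with earlier results of these data known. Named genes are reference genes with a symbol, non-overlapping groups and a higher mean of at least 5 FPKM, up to 10 per direction by p with and without the first Sanfen gluteal library; every named locus called in either fit; 4 members per list by p and all fibre list members; and the 5 smallest interaction p-values. SOD1 and TYR were named outside this rule, after their values were seen. Some list members are not reported here by name. Other settings tried were median-of-ratios and quantile scaling, filtering at 5 FPKM or not at all, a pseudocount of 0.1, array weights, no variance trend, only the gluteal libraries, blocks by library number (random block with statmod 1.5.0), and each library left out in turn. Where a fit leaves out a library, its group enters with the remaining libraries.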

Additional observations from a re-analysis of the deposited data

Results flagged for a closer look

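ZNF24 had strain differences of opposite sign in the muscles. Its interaction, the gluteal difference minus the longissimus difference on the log2(FPKM + 1) scale, was -2.74 (limma adjusted p 0.00096). The gluteal difference was -1.37 and the longissimus difference 1.37. All 3 Wutou libraries were lower than all 3 Sanfen libraries in gluteal muscle, and all 3 were higher in longissimus. Groups of 3 libraries are too small for the test of a library far from the others, so no such flag was sought.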

How the results depend on the processing

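The count of 1 locus at an adjusted p under 0.05 (limma) became 0 with median-of-ratios rescaling and 0 with the filter at an FPKM of 5, which ZNF24 does not pass; it became 3 with only the 6 gluteal libraries (P2RY2, UBQLN2 and LOC106828943, the latter 2 named after their values were seen) and, chosen after seeing the data, 4 with only the gluteal libraries without the first Sanfen one. Leaving out each of the 12 libraries in turn gave 0 to 4, with 3 without the first Sanfen gluteal library, 4 without the first Wutou longissimus library and 0 without any Sanfen longissimus library, Sanfen gluteal library 2 or 3, Wutou longissimus library 3 or Wutou gluteal library 1. ZNF24 had an adjusted p of 0.0573 with median-of-ratios rescaling, 0.0917 in the 6 gluteal libraries and 0.0870 with no filter; without Wutou gluteal library 2 or 3 the 1 call was another locus. The 505 loci at an unadjusted p under 0.05 became 1406 with no filter and 109 with the filter at 5, where fewer loci were tested, and 430 to 714 with a library left out. Of the calls at that level 16.6% were higher in Wutou, 40.6% with median-of-ratios and 48.6% with quantile scaling. The interaction count of 1 became 2 with quantile normalization and 0 with the filter at 5, and ran from 1 to 5 with a library left out (5 without the first Sanfen gluteal library, 3 without Wutou longissimus library 1 and 2 without library 3). Where not stated, the cause of a change was not tested. Library numbers do not pair the strains, whose animals differ: deviations of same-numbered gluteal libraries had correlations of 0.0862, 0.133 and 0.128, and every gluteal library correlated best with its own number. With the number as a fixed replicate block 1 locus was called in gluteal muscle (ZNF24, adjusted p 0.0227) and 2 for the interaction, and with strain and number as a random replicate block 1 (adjusted p 0.0235) and 2; 652 and 504 loci were under an unadjusted p of 0.05. Of 32 lists with at least 3 kept members, 13 kept the sign of their median in all fits without a gluteal library and both rescalings. List values of the longissimus and of the interaction without a library were also chosen after seeing the data. Unknown depth limits loci of low FPKM most.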

Other observations

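Interferon-induced genes held 2 loci that were near 0 in Sanfen gluteal libraries 2 and 3. IFIT5, which binds foreign RNA, was 2.40, 0 and 0 FPKM in Sanfen against 1.80, 3.77 and 2.35 in Wutou, and ISG15, a ubiquitin-like modifier, was 2.74, 0.237 and 0.308 against 1.72, 3.14 and 3.24. Their log2 differences were 1.24 and 0.99, and 1.83 and 1.51 without the first Sanfen library, with limma adjusted p-values of 0.974 in all libraries. The list was split, with 5 of 10 kept members higher in Wutou.

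ACTC1, the cardiac actin that skeletal muscle makes during development and repair, was 179 FPKM in the first Wutou gluteal library and 0.566 to 8.22 in the other 5. MYOG, a myogenic factor of differentiation, was 25.4 FPKM in the second Sanfen gluteal library, 1.94 and 1.28 in the others of that group, and 16.0, 5.96 and 6.14 in Wutou. The satellite cell and regeneration list had 8 of 13 kept members lower in Wutou, with a median of -0.04.

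Positional genes gave HOXC9, a homeobox gene of the trunk, at 2.33, 1.13 and 1.13 FPKM in Sanfen against 0, 0.644 and 0 in Wutou gluteal muscle. HOXC9 passed the filter only through its Sanfen libraries, so its separation is in part set by the filter, at values near the floor. HOXA9, another homeobox gene, had the other direction, at 2.04, 1.83 and 2.59 FPKM in Sanfen against 3.38, 3.35 and 2.75 in Wutou, without overlap. TBX15, a limb and muscle patterning factor, was 15, 12.6 and 18.9 FPKM against 38.4, 26.2 and 14.1, which overlap. Their list had 8 of 14 kept members higher in Wutou, with a median of 0.07. Without the first Sanfen library 6 of 14 were higher, with a median of -0.05. FMOD, a tendon matrix proteoglycan, was 9.18, 3.28 and 3.78 FPKM in Sanfen gluteal muscle against 1.89, 2.23 and 1.63 in Wutou, a log2 difference of -1.03 that was -0.64 without the first Sanfen library (limma p 0.0652 before adjustment). In longissimus its log2 difference was -2.30.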
